A study of Mus musculus with 14 samples.

Results

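The unfolded protein response and the chaperones of the endoplasmic reticulum (ER) were followed here in mouse macrophages depleted of Wdr82, through 31 genes chosen by name: ER chaperones and co-chaperones, enzymes of disulfide formation, subunits of the translocon, stress sensors with the transcription factor Xbp1, the eIF2alpha phosphatase subunit Ppp1r15a, and genes of ER-associated degradation. All 31 were matched by gene identifier among the 21761 genes of the deposited exon counts. The libraries were ribosomal RNA-depleted total RNA of untreated bone marrow-derived macrophages of FVB/Hsd mice on day 7 of differentiation in L929-conditioned medium. All of these cells had been infected with a retrovirus and selected with puromycin, and the labels do not say how many animals or infections they came from. The knockdown group held 1 library with the hairpin sh1137 and 1 with the hairpin sh830, both against Wdr82, a subunit of the SET1 histone methyltransferase and PTW/PP1 phosphatase complexes. The control group held 2 libraries with a scrambled hairpin, called scrambled 1 and scrambled 2. Of the 14 samples in the series, these 4 have counts, and the other 10 were not analysed here.

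The ER folds secreted and membrane proteins. When unfolded proteins build up in it, Ern1 (IRE1alpha) splices the Xbp1 transcript, Eif2ak3 (PERK) phosphorylates eIF2alpha and slows translation, and Atf6 is cleaved to a transcription factor. Spliced Xbp1 and cleaved Atf6 raise the transcription of chaperones, disulfide isomerases and degradation factors, many of them through the ER stress response element. Macrophages secrete much protein and use IRE1alpha and Xbp1 also downstream of Toll-like receptors. Gene-level counts show neither the splicing of Xbp1 nor the cleavage of Atf6 nor the phosphorylation of PERK.

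The element itself was read in the promoters of the members, because it is the sequence through which these chaperone genes are known to be induced together. RefSeq promoter windows (GRCm38.p6) were at hand for 25 of the 31 genes, and the 250 bases upstream of the start were searched on both strands. The ER stress response element, spelled as CCAAT, then 9 bases of any kind, then CCACG, was found in 10 of the 25 genes (40%), against 35 of 27025 genes with a window (0.13%). The lines below give each match on the strand that reads CCAAT first, with the fixed letters of the element in capitals and its nearest distance to the start. Herpud1, a stress-induced scaffold of ER-associated degradation, is added for its match to the related element ERSE-II.
Hspa5, 47 bases upstream: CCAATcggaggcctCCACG
Hsp90b1, 194 bases upstream: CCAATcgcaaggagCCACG
Hsp90b1, 89 bases upstream, other strand: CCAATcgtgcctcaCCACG
Calr, 144 bases upstream, other strand: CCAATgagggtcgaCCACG
Canx, 127 bases upstream: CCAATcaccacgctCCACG
Dnajc3, 87 bases upstream: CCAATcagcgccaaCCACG
Pdia6, 80 bases upstream: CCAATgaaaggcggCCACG
Ero1b, 183 bases upstream, other strand: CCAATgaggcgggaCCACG
Creld2, 108 bases upstream, other strand: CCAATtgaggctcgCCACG
Syvn1, 26 bases upstream: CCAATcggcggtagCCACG
Derl3, 138 bases upstream, other strand: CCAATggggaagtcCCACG
Herpud1, 42 bases upstream: ATTGGgCCACG

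ERSE-II, spelled as ATTGG, then any base, then CCACG, was found in 1 of the 25 members (4%) and in 10 of the 27025 genes (0.037%). The core of the Xbp1 element, TGACGTGG, was in none of the 25 members and in 163 genes (0.603%), and a composite C/EBP-ATF element, ATTGCATCA, was in none of the members and in 52 genes (0.192%). None of these motifs overlaps another in a member. The promoters with their flanks are given for Hspa5 and Pdia6, which carry the element and whose exon counts fell with Wdr82 knockdown, and for Hsp90b1, the member with a pair of matches. The Hspa5 stretch is chr2:34772015-34772053 on the plus strand of GRCm38.p6, the Pdia6 stretch chr12:17266481-17266519 on the plus strand, and the Hsp90b1 stretch chr10:86705523-86705666 on the minus strand.
Hspa5: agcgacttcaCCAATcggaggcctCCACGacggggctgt
Pdia6: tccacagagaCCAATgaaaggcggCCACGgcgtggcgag
Hsp90b1: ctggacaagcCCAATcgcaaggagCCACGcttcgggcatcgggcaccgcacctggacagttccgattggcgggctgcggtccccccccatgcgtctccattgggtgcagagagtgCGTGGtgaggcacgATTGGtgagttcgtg

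The libraries held 34787556 exon counts with sh1137 and 43372731 with sh830, against 40074419 and 42635790 in scrambled 1 and 2. Introns took 44.2% of exon plus intron counts with sh1137 and 15.2% with sh830, against 40.4% in scrambled 1 and 14.6% in scrambled 2, so that 1 library of each group was rich in intron reads. The change with knockdown was therefore fitted in edgeR's quasi-likelihood test with a term for intron-rich or intron-poor libraries, which leaves 1 residual degree of freedom. Rose and fell mean an adjusted p under 0.05 in that fit (Benjamini-Hochberg over all tested features). With the group term alone, edgeR passed 0 of 13884 genes; the unadjusted p lay under 0.05 for 437 genes above and 209 genes below the scrambled level, among them 1 member. DESeq2 without the intron-share term called 153 genes up and 23 down, and no member. Every call of a member below rests on the term. The p-values of the fit with the term measure the spread left between these 4 libraries once their difference by intron share is taken out. That spread is estimated in part from other genes. The smallest p of an exact two-sided permutation of 2 against 2 libraries is 0.33.

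Wdr82 had 25.1 CPM (its counts scaled to the effective library size, as edgeR computes them) with sh1137 and 40.7 CPM with sh830, against 100 CPM in scrambled 1 and 144 CPM in scrambled 2. Its log2 fold change was -1.91 ± 0.094 (SE; adjusted p = 0.0022). With the group term alone the adjusted p was 0.44 in edgeR and 0.00051 in DESeq2. Summed macrophage markers lay at 8598 and 15166 CPM in the knockdown libraries, against 10172 and 12141 CPM in the scrambled libraries. All 8 of these markers had counts, and 2 of them, Cd68 and Fcgr1, fell (log2 fold changes -0.94 ± 0.096 and -1.51 ± 0.084; adjusted p 0.0085 and 0.0031). Their part in the results below was not tested. Summed markers of stromal cells, which secrete much protein, lay at 1.87 CPM with sh1137 and 110 CPM with sh830, against 1.03 CPM in scrambled 1 and 33.1 CPM in scrambled 2, and Col1a1 alone of these 5 markers rose. Summed plasma cell markers lay at 15.9 and 26.7 CPM in the knockdown libraries, against 14.7 and 15.0 CPM in the scrambled libraries, with Mzb1 at 0 in all 4. Most of each sum was Sdc1, at 9.05 and 23.9 CPM in the knockdown and 9.10 and 11.6 CPM in the scrambled libraries. Sdc1, Irf4 and Prdm1 had log2 fold changes of 0.53, 0.34 and -0.64, none called, and Jchain was not tested. In bulk RNA such as this, fewer cells of a type and less RNA per cell cannot be told apart.

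Per kilobase of exon, the luminal chaperones and isomerases led the members. Calr had the highest level of the 31, at a mean of 488 CPM per kilobase in the knockdown libraries, against 625 in the scrambled libraries. Hspa5 followed with 293 in the knockdown and 435 in the scrambled libraries, P4hb with 297 in the knockdown and 371 in the scrambled libraries, and Hsp90b1 with 269 in the knockdown and 339 in the scrambled libraries. Hspa5 and P4hb were close in the knockdown libraries, with 271 for Hspa5 and 280 for P4hb with sh1137, and 316 for Hspa5 and 313 for P4hb with sh830, so their order there did not hold from library to library. The sensors stood far lower, with Atf6 at 28.5 in the knockdown and 25.6 in the scrambled libraries, Ern1 at 20.2 in the knockdown and 12.9 in the scrambled libraries, and Eif2ak3 at 11.4 in the knockdown and 9.71 in the scrambled libraries. Derl3, a derlin typical of secretory cells, was lowest at 0.63 in the knockdown and 0.645 in the scrambled libraries.

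**Figure D1:**
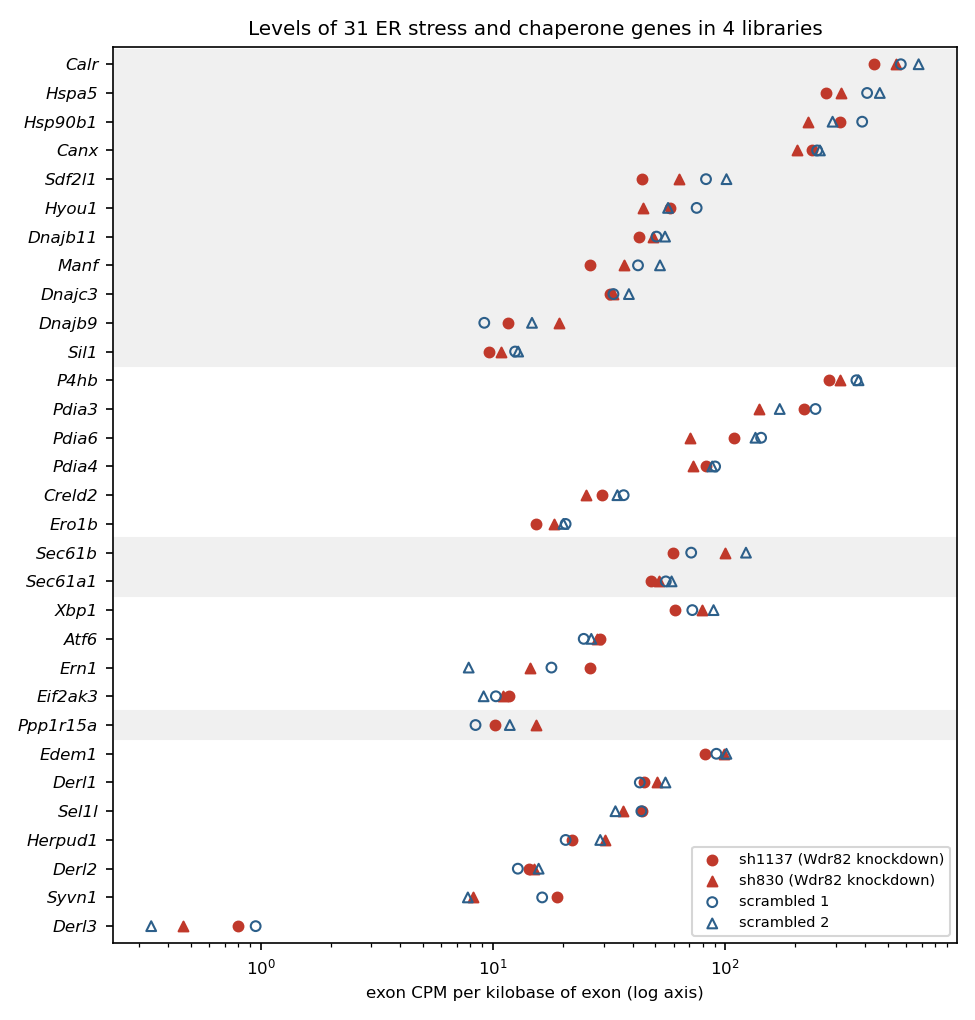
Exon level of each of the 31 genes in the 4 libraries, as CPM per kilobase of exon on a log axis, ordered by role and level; filled red symbols are the Wdr82 knockdown libraries and open blue symbols the scrambled libraries. Calr, Hspa5, P4hb and Hsp90b1 stand at the right end and Derl3 at the left end, while most genes differ less between libraries than from each other.

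Of the 31 genes, 5 fell with knockdown and 1 rose in exon counts. The products of the 5 that fell act in the ER lumen: Hspa5, Hyou1, Sdf2l1 and Manf among the chaperones, and Pdia6 among the disulfide isomerases. The gene that rose was Ern1. Among all 13884 tested genes, 6.06% rose and 7.79% fell, and among the 8977 with a mean of at least 10 CPM, 5.49% rose and 11.6% fell. The median log2 fold change over the 31 genes was -0.20, against -0.014 over all tested genes and -0.088 over those of at least 10 CPM, and 21 of the 31 (67.7%) lay below 0, against 51.5% of all tested genes and 62% of those of at least 10 CPM.

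Hspa5 (BiP, the main Hsp70 of the ER lumen; identifier 14828; mm9 chromosome 2, 34627610 to 34632049, plus strand) had 708 CPM with sh1137 and 826 CPM with sh830, against 1068 CPM in scrambled 1 and 1211 CPM in scrambled 2. Both knockdown libraries lay below both scrambled libraries. The means were 767 ± 83.2 CPM in the knockdown and 1139 ± 101 CPM in the scrambled libraries (SD, n = 2 each), and the log2 fold change was -0.57 ± 0.10 (SE; adjusted p = 0.025). Sdf2l1, which associates with BiP and its J-domain partners, had 48.4 and 69.8 CPM in the knockdown libraries, against 91.6 and 112 CPM in the scrambled libraries. It did not overlap between groups and had the largest fall of the 31 genes, at -0.80 ± 0.097 (adjusted p = 0.012).

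Manf, a secreted stress-induced factor that binds BiP, had 62.9 and 87.8 CPM in the knockdown libraries, against 101 and 125 CPM in the scrambled libraries. The groups did not overlap, and its log2 fold change was -0.60 ± 0.089 (adjusted p = 0.018). Hyou1 (GRP170), a nucleotide exchange factor of BiP, had 278 CPM with sh1137 and 213 CPM with sh830, against 361 and 272 CPM in scrambled 1 and 2. Its groups overlapped, since sh1137 lay above scrambled 2, and each knockdown library lay below the scrambled library of like intron share (log2 fold change -0.37 ± 0.086; adjusted p = 0.045).

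The other chaperones did not pass. Hsp90b1 (GRP94, the ER Hsp90) had 859 CPM with sh1137 and 624 CPM with sh830, against 1072 and 800 CPM in scrambled 1 and 2. Its groups overlapped, and the log2 fold change was -0.34 ± 0.10 (adjusted p = 0.075). Some of its exon sequence is shared with 1810014B01Rik on the other strand, which had 21.6 to 31.3 CPM in the knockdown and 23.2 to 39.2 CPM in the scrambled libraries, and reads in the shared stretch cannot be assigned to either gene. The lectin chaperone Calr had 847 and 1051 CPM in the knockdown libraries, against 1107 and 1322 CPM in the scrambled libraries, without overlap (-0.36; adjusted p = 0.073). Canx, its membrane-bound relative, the exchange factor Sil1 and the J-proteins Dnajb11 and Dnajc3 had log2 fold changes of -0.30 to -0.14, none called. Dnajb9 (ERdj4), a J-protein that acts on IRE1, was the only chaperone gene above 0. It had 21.7 and 35.9 CPM in the knockdown libraries, against 17.1 and 27.5 CPM in the scrambled libraries (0.36 ± 0.10; adjusted p = 0.069). In all, 4 of 11 chaperone genes fell, 10 lay below 0, and their median was -0.34. Among tested genes of at least 10 CPM, 11.6% fell and 62% lay below 0.

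Among the 6 genes of disulfide formation, 1 fell, all 6 lay below 0, and the median was -0.30. The shares among tested genes of at least 10 CPM were 11.6% and 62%. Pdia6, an isomerase that also binds BiP and IRE1alpha, had 313 CPM with sh1137 and 201 CPM with sh830, against 409 and 387 CPM in scrambled 1 and 2. The groups did not overlap, the log2 fold change was -0.67 ± 0.15 (adjusted p = 0.041), and the difference was larger with sh830 (-0.94 against scrambled 2) than with sh1137 (-0.39 against scrambled 1). Pdia6 lost its call with DESeq2's size factors (adjusted p = 0.065). Its exons overlap those of Atp6v1c2 on the other strand, which had 2 and 7 counts in the knockdown and 11 and 6 counts in the scrambled libraries. The isomerases P4hb, Pdia3 and Pdia4, the oxidase Ero1b and the BiP-associated Creld2 lay at -0.38 to -0.20, none called. Creld2 came closest, with 40.1 and 34.5 CPM in the knockdown libraries, against 49.8 and 46.8 CPM in the scrambled libraries (adjusted p = 0.052). The translocon subunits Sec61a1 and Sec61b, through which proteins enter the ER, had -0.20 and -0.28 and did not pass.

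**Figure D2:**
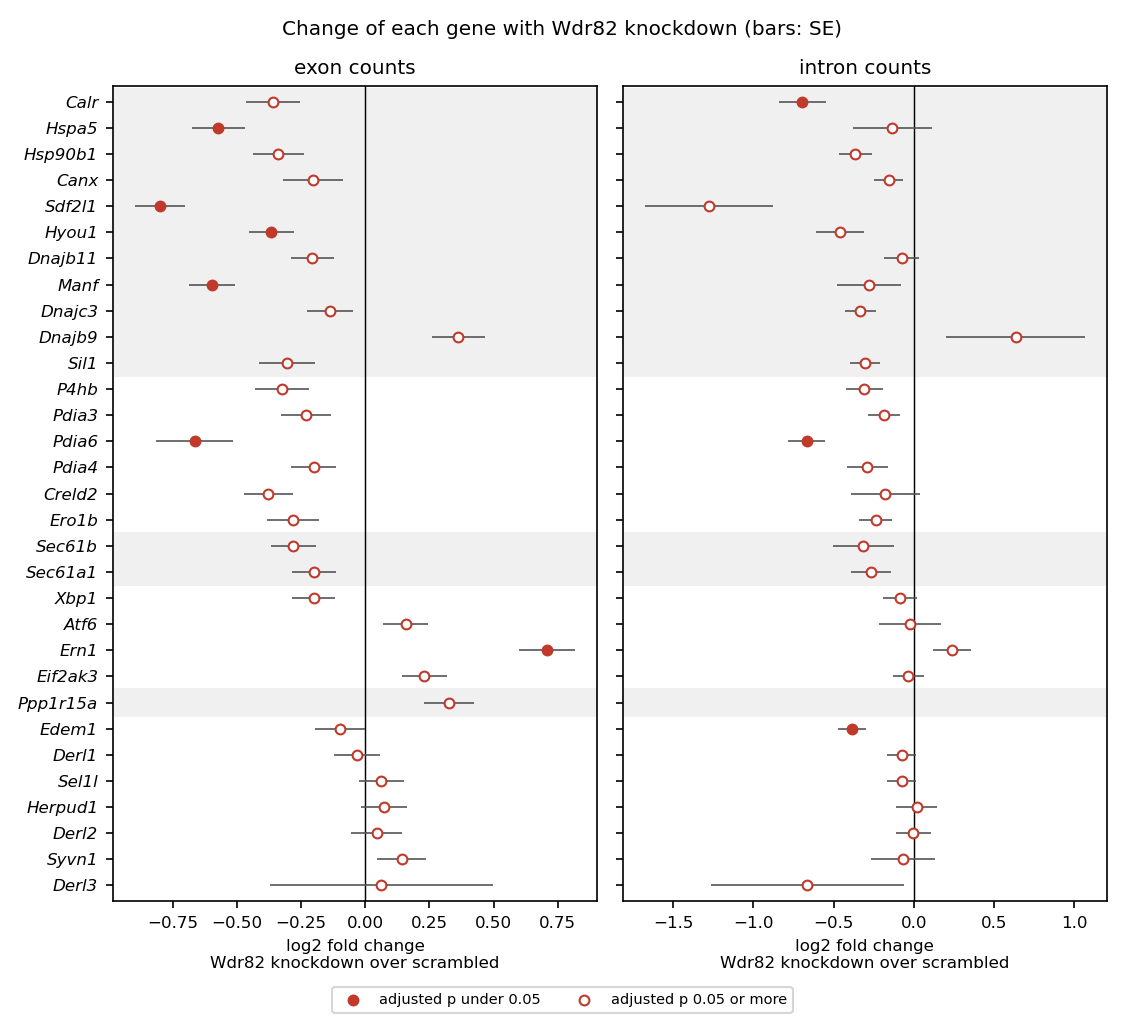
Log2 fold change of each gene, Wdr82 knockdown over scrambled, in exon counts (left) and intron counts (right), with SE as bars and the adjusted p under 0.05 as filled symbols, from the fit with the intron-share term. In exon counts Hspa5, Sdf2l1, Hyou1, Manf and Pdia6 lie left of 0 and Ern1 right of 0 with filled symbols; Ppp1r15a has no intron value.

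Among the 3 sensor genes and Xbp1, Ern1 rose and the others did not pass. Ern1 (identifier 78943; mm9 chromosome 11, 106258934 to 106349110, minus strand) had 119 CPM with sh1137 and 65.8 CPM with sh830, against 81.5 CPM in scrambled 1 and 35.9 CPM in scrambled 2. The groups overlapped, and each knockdown library lay above the scrambled library of like intron share, by 0.55 with sh1137 and 0.88 with sh830 on the log2 scale. The log2 fold change was 0.71 ± 0.11 (adjusted p = 0.019), which is smaller than the difference of 1.18 between scrambled 1 and scrambled 2. Atf6 had 215 and 210 CPM in the knockdown libraries, against 184 and 198 CPM in the scrambled libraries. The groups did not overlap, and the log2 fold change was 0.16 ± 0.089 (adjusted p = 0.27). Eif2ak3 had 61.7 and 57.9 CPM in the knockdown libraries, against 54.1 and 48.0 CPM in the scrambled libraries, also without overlap (0.23 ± 0.088; adjusted p = 0.13). Xbp1 had 110 and 144 CPM in the knockdown libraries, against 130 and 160 CPM in the scrambled libraries. Its groups overlapped, and the log2 fold change was -0.20 ± 0.084 (adjusted p = 0.16).

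Ppp1r15a (GADD34), which brings the phosphatase to eIF2alpha, had 30.0 and 45.0 CPM in the knockdown libraries, against 24.7 and 34.7 CPM in the scrambled libraries (0.33 ± 0.098; adjusted p = 0.076). The 7 genes of ER-associated degradation lay between -0.10 and 0.14 with a median of 0.063, and none passed. They are the ubiquitin ligase Syvn1 and its partner Sel1l, the scaffold Herpud1, the mannosidase-like Edem1 and the derlins Derl1, Derl2 and Derl3. Syvn1 moved with library type far more than with group, at 75.1 CPM with sh1137 and 32.5 CPM with sh830, against 64.8 and 31 CPM in scrambled 1 and 2, and its exons overlap those of Mrpl49 on the other strand. A region without a gene strand at the end of Herpud1 (mm9 chromosome 8, 96919000 to 96922499), which the authors chose on a knockdown comparison, had 99 and 118 counts in the knockdown and 90 and 88 counts in the scrambled libraries (log2 fold change 0.30 ± 0.29; adjusted p = 0.50).

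Set pair by pair, 20 of the 31 genes were lower with both hairpins, 8 were higher with both and 3 had opposite signs. Over all tested genes, 39.5% were lower with both, 35% higher with both and 25.5% opposite, and over genes of at least 10 CPM the shares were 50.4, 27.4 and 22.2%. The difference for Hspa5 was -0.59 with sh1137 and -0.55 with sh830, for Sdf2l1 -0.92 with sh1137 and -0.68 with sh830, for Manf -0.68 with sh1137 and -0.51 with sh830, and for Hyou1 -0.38 with sh1137 and -0.35 with sh830. For Pdia6 and Ern1, given above, the difference was larger with sh830, the library with the highest sum of stromal markers. The part of stromal RNA in these differences was not tested. By exon CPM, 14 of the 31 genes were lower in both knockdown libraries than in both scrambled libraries and 2 were higher, against 15.7% of all tested genes in each direction. That share was not computed for genes of at least 10 CPM, which were more often lower with both hairpins than all tested genes.

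**Figure D3:**
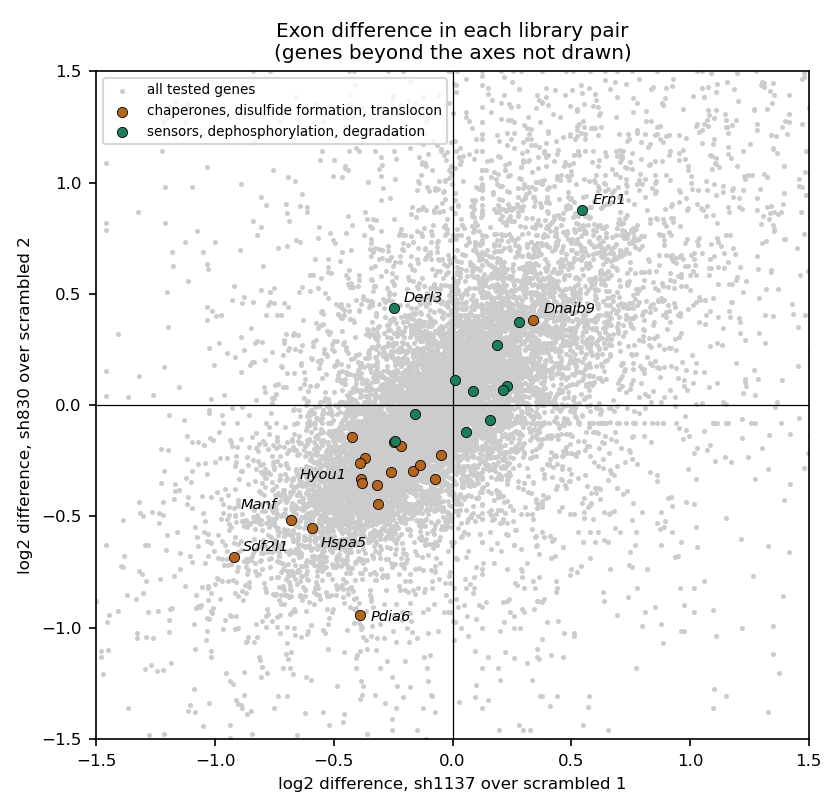
Log2 exon difference of sh1137 over scrambled 1 (x axis) and of sh830 over scrambled 2 (y axis) for all tested genes in grey, for chaperone, disulfide and translocon genes in brown, and for sensor, phosphatase and degradation genes in green; genes beyond the axes are not drawn. Brown points lie in the lower left quadrant except Dnajb9, Ern1 lies in the upper right, and Derl3 has opposite signs.

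In intron counts, 3 of the 30 tested genes fell and none rose, where 3.93% of 12405 genes fell and 5.97% rose. Of the intron calls over all genes, 60.3% were rises, and 80.9% were rises with the exon counts' scaling factors, which moved the median of all genes by 0.11. The median over the 30 genes was -0.21, against -0.011 over all genes, and 27 (90%) lay below 0, against 51.3% of all genes. Genes with a mean of at least 10 CPM in exon counts were lower than all genes here too. Of 8591 such genes, 449 fell and 343 rose, 59.9% lay below 0 and the median was -0.062. With the exon factors the members' median was -0.097, against 0.10 over all genes. Pdia6 had 718 and 335 intron counts in the knockdown libraries, against 1200 and 443 in the scrambled libraries (-0.67 ± 0.11; adjusted p = 0.021). Calr had 255 and 146 intron counts in the knockdown libraries, against 405 and 213 in the scrambled libraries (-0.69 ± 0.15; adjusted p = 0.036). Edem1, which had no exon call, had 4208 and 1246 intron counts in the knockdown libraries, against 5329 and 1485 in the scrambled libraries (-0.39 ± 0.088; adjusted p = 0.044). All 3 were lower in both knockdown libraries than in both scrambled libraries as CPM of intron counts. This does not set them apart, since 12 members were lower in this way and 0 were higher. Dnajb11 and Sel1l were among the 12 without a call, at -0.076 for Dnajb11 and -0.074 for Sel1l. The share over all genes was not computed for intron CPM. Edem1 lost its call with the exon factors, and DESeq2 with the intron-share term called Pdia6 only.

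Pdia6 was the only member called in both kinds of count. Hspa5 had few intron counts, 107 and 80 in the knockdown libraries, against 133 and 67 in the scrambled libraries (-0.13 ± 0.25; adjusted p = 0.77). Its intron and exon changes could not be told apart at this depth (difference 0.42 ± 0.18; adjusted p = 0.21). For Ern1 the intron change was 0.24 ± 0.12 (adjusted p = 0.25), from 10725 and 2478 intron counts in the knockdown and 7819 and 2169 in the scrambled libraries. The difference between intron and exon change was tested as an interaction over 11772 genes, of which 2.19% were called positive and 1.46% negative. Ern1 was the only one of 30 members called, at -0.46 ± 0.11 (adjusted p = 0.0034), so its intron change lay below its exon change. With sh1137 over scrambled 1 its intron and exon differences were 0.43 and 0.55. With sh830 over scrambled 2 they were 0.037 and 0.88, so the gap lay mostly in the sh830 pair. The difference between the hairpins was not tested. The interaction call of Ern1 ended with the group term alone.

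The members held few intron reads for their libraries. Their median intron share was 14.2% with sh1137 and 4.85% with sh830, against 13.0% in scrambled 1 and 4.71% in scrambled 2, where the medians over genes with both counts were 42.8% and 19.2% in the knockdown and 39.1% and 18.6% in the scrambled libraries. In each library, 26 of 30 members lay below the gene median. Hspa5 was lowest at 0.402% and 0.229% in the knockdown libraries (exact 95% binomial intervals 0.329 to 0.485% and 0.182 to 0.285%), against 0.304% and 0.139% in the scrambled libraries (0.254 to 0.360% and 0.107 to 0.176%). Ern1 was among the highest, at 70.7% with sh1137 and 47.1% with sh830, against 70.1% in scrambled 1 and 60.3% in scrambled 2. The intervals cover counting error only, and intron length, which ranges widely over these genes, is part of the share.

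**Figure D4:**
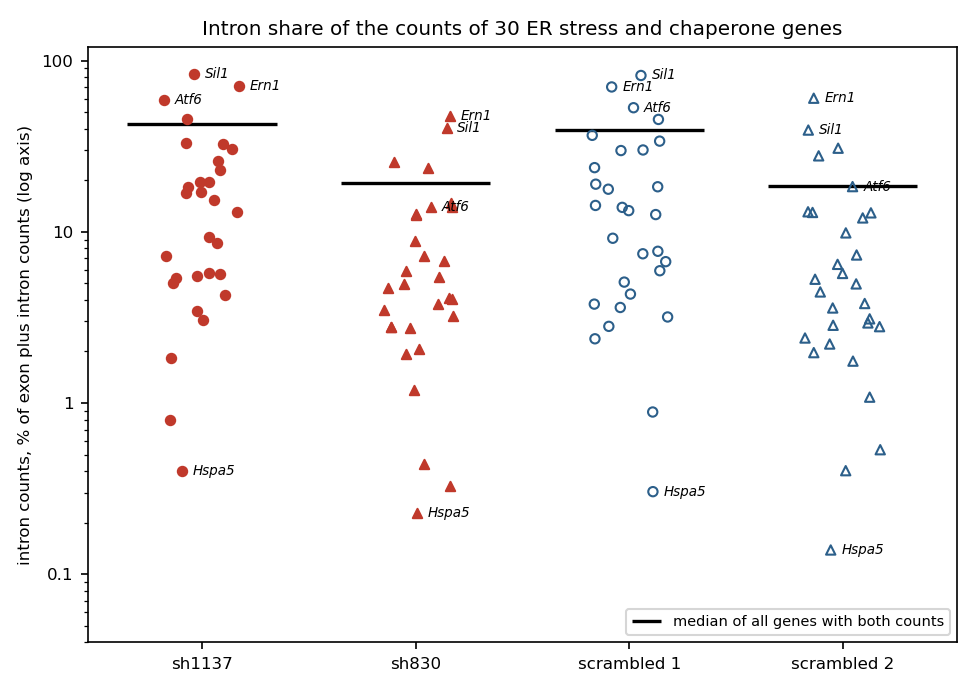
Intron counts as a percentage of exon plus intron counts for 30 genes in each library on a log axis, with sh1137 and sh830 in filled red and scrambled 1 and 2 in open blue symbols; the black bar is the median of all genes with both counts. Most members lie below the bar in each library, with Hspa5 lowest and Ern1 and Sil1 highest.

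Members with and without an exact match to the stress element overlapped in their exon change. Of the 10 genes with a match to the element printed above, 2 fell (Hspa5 and Pdia6), 8 lay below 0 and the median was -0.31. Of the 15 genes with a window and no match, 1 fell (Sdf2l1), 1 rose (Ern1), 8 lay below 0 and the median was -0.099. The range was -0.67 to 0.14 with a match and -0.80 to 0.71 without one. Herpud1, with its match to ERSE-II, is counted among the 15. Hyou1 and Manf, which fell, had no window and are in neither set.

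Other genes of the ER were counted in the same fit, where 6.06% of all tested genes rose and 7.79% fell. Among genes of at least 10 CPM these shares were 5.49% and 11.6%. They stand beside the counts of each list in this paragraph and the next, and no list was tested as a set. Of 34 further genes of stress signalling, 2 rose and 5 fell with a median of -0.0041. Atf4, the transcription factor whose translation rises when PERK acts, had 128 and 201 CPM in the knockdown libraries, against 168 and 288 CPM in the scrambled libraries (-0.45 ± 0.088; adjusted p = 0.029). Its target Chac1, a glutathione-degrading enzyme, had 1.41 and 3.10 CPM in the knockdown libraries, against 3.08 and 8.05 CPM in the scrambled libraries (-1.26 ± 0.26; adjusted p = 0.033). The 2 that rose were Ccpg1, an ER-phagy receptor, at 0.79 ± 0.13 (adjusted p = 0.020), and Creb3l1, a membrane-bound transcription factor related in layout to Atf6, at 1.61 ± 0.29 (adjusted p = 0.026).

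Of 21 tested genes of N-glycosylation and the calnexin cycle, 5 fell and none rose, with a median of -0.23. Alg8, a glucosyltransferase of the lipid-linked sugar, had 6.88 and 7.42 CPM in the knockdown libraries, against 19.9 and 14.5 CPM in the scrambled libraries (-1.25 ± 0.19; adjusted p = 0.019). Krtcap2, a subunit of oligosaccharyltransferase, fell too (-0.66 ± 0.11; adjusted p = 0.023). Of 25 further genes of translocation and signal peptide removal, 1 fell, the translocon-associated Ssr4 at -0.54 ± 0.089 (adjusted p = 0.021), and the median was -0.16. Of 25 further genes of ER-associated degradation, 2 rose and 1 fell with a median of -0.071: the lectin Os9 at 0.47 ± 0.088 (adjusted p = 0.028) and the protease Hm13 at 0.35 ± 0.084 (adjusted p = 0.048) rose, and Fbxo6, which binds N-glycans, fell at -0.55 ± 0.13 (adjusted p = 0.043). Of 22 further genes of oxidative and prolyl folding, 2 rose and 1 fell with a median of 0.0061. Fkbp10, a collagen chaperone, was one that rose, with 0.187 and 5.78 CPM in the knockdown libraries, against 0.0978 and 1.03 CPM in the scrambled libraries (2.12 ± 0.50; adjusted p = 0.046). Like the stromal markers it was high in the intron-poor pair, and the part of stromal RNA in that result was not tested. Fkbp9 rose too (0.93 ± 0.20; adjusted p = 0.038), and the sulfhydryl oxidase Qsox2 fell (-0.60 ± 0.10; adjusted p = 0.023).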

How the data were processed

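Ribosomal RNA-depleted total RNA was made into strand-marked libraries, per the labels' protocols. The deposited counts are the authors' unnormalized reads per gene, over exon intervals in one set of tables and intron intervals in another. The build is mm9 and the tools SICER, Cuffdiff 2.1.1, Cufflinks 2.1.1 and TopHat 1.3.1, per the submitters' processing notes. The counting tool and its strand setting are not given in the sources used here, so reads of overlapping genes on opposite strands cannot be told apart. The coordinates, other values in the deposited annotation, are the authors' mm9 intervals.

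One fit held genes and non-gene regions, made with edgeR 4.0.16 on limma 3.58.1 and R 4.3.3, using filterByExpr, TMM factors from genes, a group term and a term for intron share above or below 29.4%, the midpoint of the 4 libraries. SE is the size of the log2 fold change divided by the root of F. Intron counts had factors of their own, and the interaction used genes that passed both filters. Of 21761 genes, 21615 had a symbol. The pair differences are log2 of CPM with 0.5 counts added. The code was tested on simulated counts drawn with the same spread for every gene. There the exon fit with the library term called 78 of 100 genes changed by 1 on the log2 scale. It called 6 of 100 changed by 0.5, so most changes of that size went without a call there. In all, 1 unchanged gene was called. Few genes were changed in the simulation, so its shares do not carry over to the members. In the deposited counts smaller changes were called too, such as Hyou1 at -0.37.

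The 31 genes, the other gene lists and the library term were chosen with earlier results of these data known. Members called in any fit, Xbp1, Atf6, Ern1, Eif2ak3, Hspa5 and Hsp90b1 were given in full, with up to 2 genes per direction of each other list, those with the smallest p; Canx, Creld2, Dnajb9, Ppp1r15a, Syvn1 and other members given by value beside them were added after their values were seen. Alternatives were the group term alone, DESeq2 1.42.0 with and without the library term, its size factors, no filter, genes without regions, exon factors for introns, levels without length, and each library left out. For Hyou1, Sil1, Manf, Atf6, Derl1 and Sec61a1 no promoter window was used here.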

Additional observations from a re-analysis of the deposited data

Results flagged for a closer look

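The 3 derlins, channel proteins of ER-associated degradation, had exon differences of opposite sign with sh1137 and sh830, and the difference between the hairpins was not tested. For Derl1 the log2 difference of sh830 over scrambled 2 minus that of sh1137 over scrambled 1 was -0.18, for Derl2 -0.23 and for Derl3 0.68. Derl1 had 140 CPM with sh1137 and 160 CPM with sh830, against 135 and 174 CPM in scrambled 1 and 2. Derl2 had 55.1 and 57.8 CPM in the knockdown libraries, against 49.3 and 60.6 CPM in the scrambled libraries. Derl3 had 1.07 and 0.616 CPM in the knockdown libraries, against 1.27 and 0.452 CPM in the scrambled libraries, a level at which counting error is large. Opposite signs were seen for 25.5% of all tested genes and for 3 of the 31 members.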

How the results depend on the processing

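Exon calls among the members were 1 higher and 5 lower. They were 1 and 4 with DESeq2's size factors in edgeR, 1 and 6 without regions, 1 and 8 with DESeq2 and the library term (Calr, Hsp90b1 and P4hb added), 1 and 8 without a filter, and 0 and 0 with the group term alone in edgeR or DESeq2. Leaving out any library, with the group term alone, gave 0 to 0 in both directions; such a fit compares libraries of unlike intron share. Over all genes the exon calls were 841 higher and 1081 lower, 153 and 23 with DESeq2 and the group term alone, 0 and 0 with edgeR and the group term alone, and 13 to 190 higher and 1 to 28 lower with a library left out. Wdr82 was at -1.91, at -1.89 with the group term alone in edgeR (adjusted p = 0.44), at -1.90 with the group term alone in DESeq2 (adjusted p = 0.00051), and at -2.28 to -1.58 with a library left out (adjusted p 0.0016 without scrambled 1, 0.22 without scrambled 2, 0.072 without sh1137 and 0.0076 without sh830). Hspa5 lay between -0.68 and -0.45, Sdf2l1 between -1.06 and -0.55, Manf between -0.84 and -0.37, Hyou1 between -0.58 and -0.16, Pdia6 between -0.99 and -0.34 and Ern1 between 0.16 and 1.35 with a library left out, none past the threshold.

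Intron calls among the members were 3 lower, 6 with DESeq2's size factors, 8 without a filter, 1 with DESeq2 and the library term, 2 with exon factors, and 0 with the group term alone in either tool or with a library left out (0 to 0). Over all genes they were 740 higher and 488 lower, 1091 and 915 with DESeq2's size factors, 1233 and 1133 without a filter, 565 and 318 with DESeq2 and the library term, 1504 and 355 with exon factors, 158 and 8 with DESeq2 and the group term alone, 0 and 0 with edgeR and the group term alone, and 5 to 211 and 0 to 42 with a library left out. For intron against exon change, 1 member was called lower, and 0 with the group term alone or a library left out (0 to 0). Over all genes 258 were higher and 172 lower, 177 and 174 with DESeq2's size factors, 182 and 162 without a filter, 0 and 0 with the group term alone, and 0 to 2 and 0 to 0 with a library left out. Without length, Canx ranked 2 in place of 5, Hspa5 3 in place of 2, P4hb 4 in place of 3 and Hsp90b1 5 in place of 4.

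Signs reversed for these values, none of them called. With the group term alone, Derl3 exons were at -0.036 (-0.025 in DESeq2), Atf6 introns at 0.13 (0.10 in DESeq2) and Pdia6 intron against exon at 0.00094. With exon factors, introns of Xbp1 were at 0.029, of Atf6 at 0.087 and of Eif2ak3 at 0.077. With a library left out, exon changes ranged from -0.22 to 0.18 for Derl1, -0.11 to 0.22 for Derl2, -0.56 to 0.88 for Derl3, -0.036 to 0.77 for Dnajb9, -0.26 to 0.0017 for Dnajc3, -0.22 to 0.022 for Edem1, -0.18 to 0.37 for Herpud1, -0.58 to 0.083 for Pdia3, -0.70 to 0.18 for Sec61b, -0.091 to 0.24 for Sel1l and -0.57 to 0.78 for Syvn1. Intron changes ranged from -0.63 to 0.38 for Hspa5, -0.94 to 0.12 for Hsp90b1, -0.89 to 0.30 for Manf, -0.40 to 0.20 for Xbp1, -0.87 to 0.70 for Atf6, -0.12 to 0.57 for Ern1, -0.13 to 0.056 for Eif2ak3 and -0.68 to 0.031 for Wdr82. Intron against exon ranged from -0.79 to 0.75 for Hsp90b1, -0.45 to 0.30 for Hyou1, -0.0090 to 0.64 for Manf, -0.48 to 0.50 for Pdia6 and -0.95 to 0.56 for Atf6. The cause was not tested. No paired analysis was possible because the knockdown libraries carry a hairpin name and no replicate number; this concerns pairing by the labels, while the intron-share term acts as a block that was read from the counts. With 2 libraries a group and 1 residual degree of freedom, the calls rest on a spread borrowed from other genes, and Derl3 and Hspa5 introns are limited by depth.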

Other observations

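Heat shock and chaperonin genes outside the ER, most of them of the cytosol, were also counted. The list includes the mitochondrial chaperones Hspd1, Hspe1 and Hspa9. Of its 30 tested genes, 9 fell with Wdr82 knockdown and none rose, and 25 lay below 0 with a median of -0.31. Hspa9 was among those that fell (-0.42 ± 0.090; adjusted p = 0.037). Among all tested genes, 7.79% fell. Among those with a mean of at least 10 CPM, 11.6% fell, 62% lay below 0 and the median was -0.088. Ahsa1, an activator of Hsp90, had 114 CPM with sh1137 and 165 CPM with sh830, against 193 CPM in scrambled 1 and 265 CPM in scrambled 2 (log2 fold change -0.73 ± 0.085; adjusted p = 0.011). Fkbp4, a co-chaperone of Hsp90, had 63.7 and 78.0 CPM in the knockdown libraries, against 88.6 and 115 CPM in the scrambled libraries (-0.52 ± 0.084; adjusted p = 0.021).

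Of 29 tested genes of transport between ER and Golgi, 1 rose and 1 fell, with a median of -0.068. Over all tested genes, 6.06% rose and 7.79% fell. Golgb1, a Golgi tether, rose by 0.42 ± 0.096 on the log2 scale (adjusted p = 0.042). Sec13, a coat subunit of vesicles that leave the ER, had 58.8 and 107 CPM in the knockdown libraries, against 81.1 and 134 CPM in the scrambled libraries (-0.39 ± 0.087; adjusted p = 0.039).

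Of the other cell types' markers, Xcr1 (dendritic cell) and Ppbp (megakaryocyte) rose, at 1.49 ± 0.29 (adjusted p = 0.029) and 3.48 ± 0.32 (adjusted p = 0.0068). Each was the only marker of its list called. The dendritic cell markers Zbtb46, Siglech and Flt3 lay at 1.29, -0.058 and -1.07. The megakaryocyte marker Itga2b lay at 0.064, and Gp9 was not tested. Summed neutrophil markers lay at 13.0 and 3.46 CPM in the knockdown libraries, against 15.2 and 7.15 CPM in the scrambled libraries, and summed B cell markers at 0.667 and 1.71 CPM in the knockdown libraries, against 0.342 and 0.351 CPM in the scrambled libraries.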
